A study of Rattus norvegicus with 24 samples.

Results

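The proteasome is the protease of the ubiquitin system, and its subunits and assembly factors were followed here in the tibialis anterior (TA) of aged rats. The genes were the symbols of the expression table that begin with Psma to Psmg followed by a number, with the row of highest mean taken for each symbol. There were 50 such genes among 13458 symbols. Of these, 47 are subunits, activators, an inhibitor or chaperones of the proteasome, and Psma3l, Psmc3ip and Psme3ip1 matched by name alone. RNA from both hind limbs of 12 male Fischer 344 rats aged 23 ± 1 months was sequenced. In 9 animals a pump delivered tetrodotoxin (TTX), a blocker of nerve impulses, to the left common peroneal nerve, and the right limb received no TTX. The left TA was taken at the end of 6 to 7 days of TTX (atrophy, n = 3), following a further 9 days without it (recovery, n = 3) or at the end of a second TTX period of 5 to 6 days (repeated atrophy, n = 3). The 9 right limbs of these animals were the control, so the control muscle comes from animals that carried a pump and a nerve block on the other side. The other 3 animals had the same surgery with saline, 1 at each time point, and gave 3 sham left and 3 sham right limbs. All animals were old males, and young animals were not analysed here.

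The proteasome degrades proteins that carry ubiquitin chains. Its barrel-shaped core particle is built from outer alpha rings (Psma genes), which gate the channel, and inner beta rings (Psmb genes), which hold the proteolytic sites. Psmb6, Psmb7 and Psmb5 carry the caspase-like, trypsin-like and chymotrypsin-like activities, and interferon-inducible Psmb9, Psmb10 and Psmb8 can take their places to form the immunoproteasome. The regulatory particle that caps the core has a base with ATPases (Psmc genes) and non-ATPase subunits, which unfold substrates, and a lid with further Psmd subunits, which removes ubiquitin. Alternative activators (Psme genes) open the core without ubiquitin, and dedicated chaperones (Psmg genes, Psmd5, Psmd9 and Psmd10) assist assembly. In skeletal muscle, transcription of proteasome genes is known to rise in several forms of wasting, and the transcription factor Nfe2l1 drives these genes through antioxidant response elements when proteasome capacity falls short.

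Sequences upstream of the transcription start were available for 44 of the 50 genes (RefSeq, rat assembly GRCr8) and are shown for Psmb5 and Psmb6 as constitutive catalytic subunits, Psmd1 as a base subunit and Psmb9 as an immunoproteasome subunit, a choice made after their values were seen. Each is the stretch of 250 bases before the start, 5′ to 3′ on the strand of the gene, with matches to the core of the antioxidant response element, TGACNNNGC on either strand, in capitals.
Psmb5, chr15:32047380-32047629, minus strand: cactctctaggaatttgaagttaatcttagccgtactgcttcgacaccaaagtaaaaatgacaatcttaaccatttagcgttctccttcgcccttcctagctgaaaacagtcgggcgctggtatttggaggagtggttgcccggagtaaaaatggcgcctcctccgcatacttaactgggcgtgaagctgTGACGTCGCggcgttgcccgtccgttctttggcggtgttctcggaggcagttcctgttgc
Psmb6, chr10:55737638-55737887, plus strand: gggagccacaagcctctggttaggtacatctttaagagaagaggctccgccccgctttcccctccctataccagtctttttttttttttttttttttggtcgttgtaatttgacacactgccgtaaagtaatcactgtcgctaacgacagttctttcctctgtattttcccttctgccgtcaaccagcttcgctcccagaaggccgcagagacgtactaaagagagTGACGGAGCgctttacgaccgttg
Psmd1, chr9:94157721-94157970, plus strand: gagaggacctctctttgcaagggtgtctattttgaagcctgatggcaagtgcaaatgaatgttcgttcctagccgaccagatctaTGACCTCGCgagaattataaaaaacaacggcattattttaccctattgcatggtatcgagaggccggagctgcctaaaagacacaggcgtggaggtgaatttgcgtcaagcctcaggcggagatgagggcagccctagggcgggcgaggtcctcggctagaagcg
Psmb9, chr20:4668750-4668999, plus strand: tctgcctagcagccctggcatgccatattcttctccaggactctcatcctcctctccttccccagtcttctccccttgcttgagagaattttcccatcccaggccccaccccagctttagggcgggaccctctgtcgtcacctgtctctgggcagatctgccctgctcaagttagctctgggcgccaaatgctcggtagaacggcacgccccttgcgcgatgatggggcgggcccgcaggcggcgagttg
Psmb5 held its match 60 bases before the start, Psmb6 at 24 bases and Psmd1 at 165 bases, and Psmb9 held none in this window. Over the whole promoter windows, which also include the first 50 bases after the start, 8 of 44 member promoters held this motif (Psma3, Psmb2, Psmb5, Psmb6, Psmd1, Psmd3, Psmd9 and Psme4), or 18.2%, against 12.1% of all 33469 promoters. CCAAT occurred in 22 of 44 member promoters and in 37.5% of all promoters. TGTTTAC, a forkhead motif, occurred in 1 of 44, that of Psme2, and in 3.78% of all promoters. A match of these letters is a description and does not show binding.

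The 3 comparisons with control share the same 9 control limbs. Expression was given as read counts scaled to a total of 1000000 per limb (CPM), with an inferred depth of 18860000 to 30890000 reads a limb. The group comparisons used log2(CPM + 1), and a gene was called upregulated or downregulated when its fold reached 1.2 and its adjusted p, over all rows in limma, was 0.05 or less. On this scale the median of all 14031 rows lay at 0.22 after atrophy and 0.20 after repeated atrophy relative to control, so the limbs were also put on another scale with a trimmed mean of log ratios (rescaling), which brought both medians to within 0.01 of 0. The summed level of 7 skeletal muscle markers was 158602 to 212600 CPM in control limbs, 77499 to 168441 after atrophy and 98402 to 134905 after repeated atrophy. In the fit with an intensity trend, which gave these markers wider errors, 0 of 7 markers passed. Without the trend, 3 of 7 were downregulated after atrophy and 4 of 7 after repeated atrophy, among them Ckm, the muscle creatine kinase, at −1.11 ± 0.26 (SE, adjusted p = 0.00978) and −0.87 ± 0.26 (SE, adjusted p = 0.0145). The markers did not all move together. Myh2 had a log2 FC of 0.99 and 0.02 and Tnnt3 −0.06 and 0.33 in the same comparisons, and neither passed. The counts of proteasome genes were the same without the trend, and the part of the muscle markers in the results on the proteasome was not tested. In whole muscle, a change in the number of cells of a type cannot be told apart from a change of RNA per cell.

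In each limb the 50 genes together took between 0.367% and 1.14% of all CPM. The summed level was 11424, 8718 and 8847 CPM in the repeated atrophy limbs of animals 364, 365 and 366, and 9204, 7063 and 8336 CPM in the atrophy limbs of animals 362, 367 and 372. It was 4391, 3671 and 4997 CPM in the recovery limbs of animals 369, 370 and 371. The control limbs lay between 3759 and 6071 CPM, apart from the right limb of animal 372 at 9455 CPM. Thus 1 control limb reached the level of the atrophy limbs, and the control limbs of the recovery animals were the lowest, at 3759 to 4262 CPM.

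**Figure D1:**
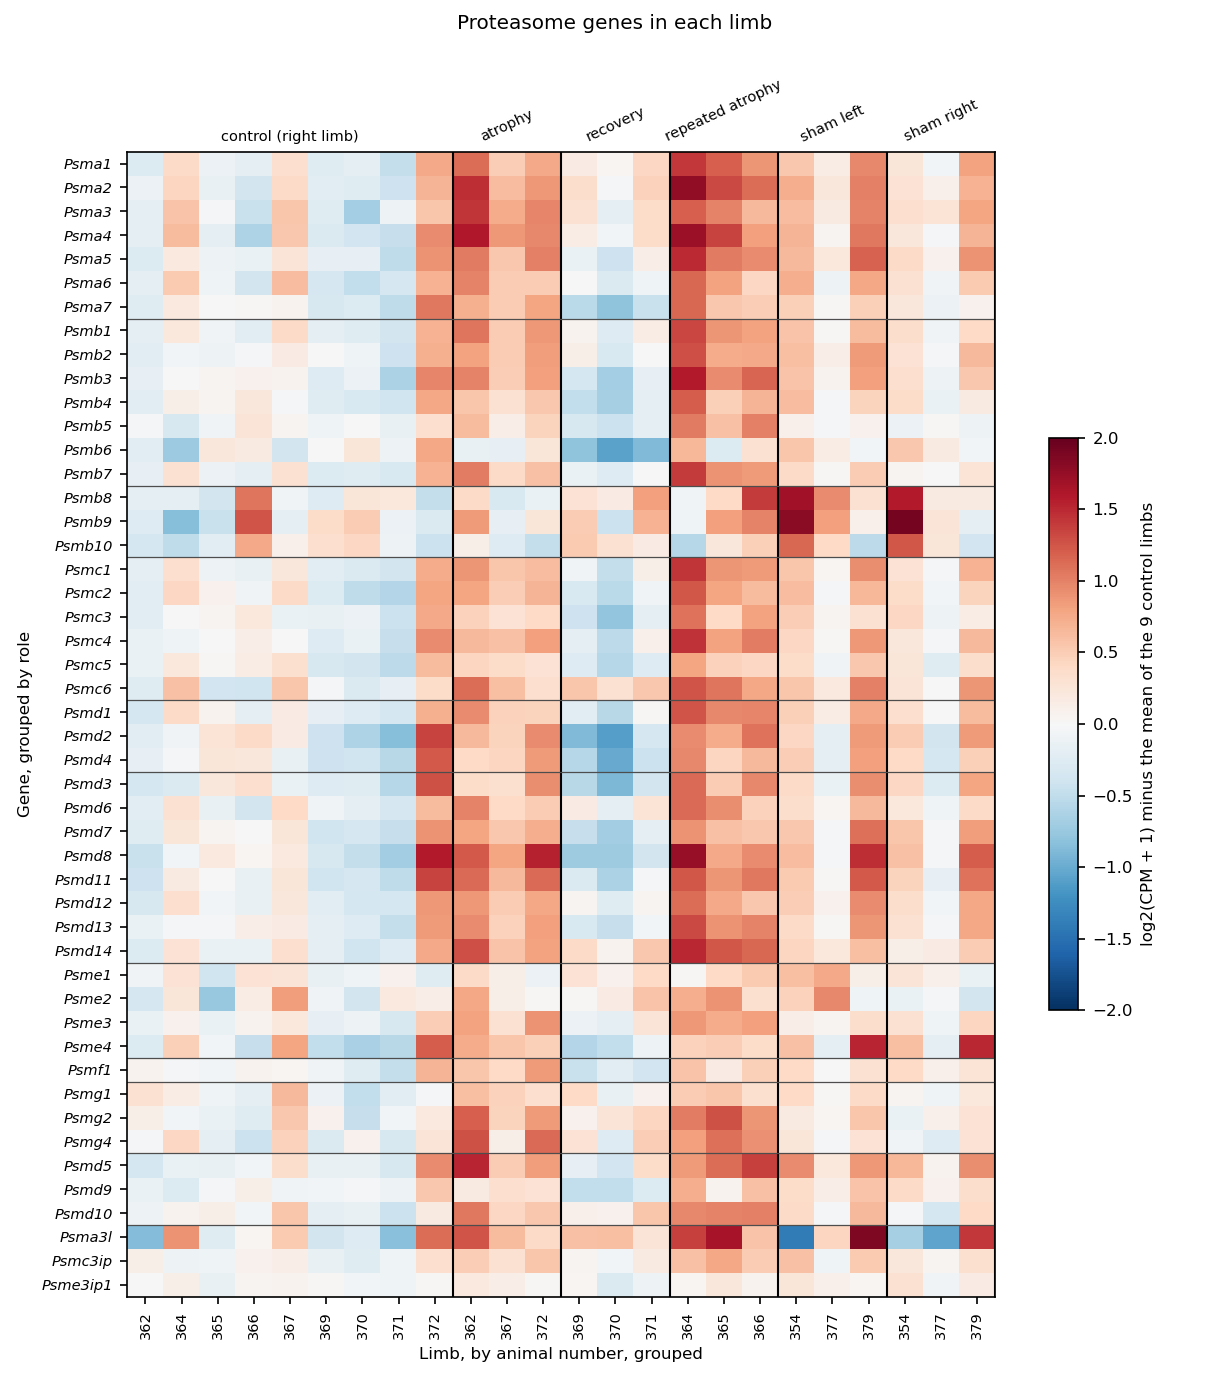
Level of 48 proteasome genes (rows, grouped by role) in each of 24 limbs (columns, by animal number within group), as log2(CPM + 1) minus the mean of the 9 control limbs; red is higher and blue lower, and Psma8 and Psmb11, which were close to 0, are left out. The right limb of animal 372 is red across most of the core, base and lid genes, and the 3 repeated atrophy limbs are red in nearly all rows except those of the immunoproteasome and Psmb6.

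After repeated atrophy, 38 of 50 genes were upregulated vs. control and 0 were downregulated, against 28.1% of all rows upregulated. Their median log2 FC was 0.87, compared with 0.20 over all rows, and 0.49 after rescaling, when the median over all rows was −0.01. In 19 of the 50 genes all 3 repeated atrophy limbs lay above all 9 control limbs (16.5% of all rows), and without animal 372 in 37 of 50 (21.5% of all rows). Psmc3ip, matched by name alone, and Psmb11, whose level was close to 0, are among both the 38 and the 19. Psma3l, also matched by name alone, is among the 38. After rescaling, 22 genes remained upregulated (13.1% of all rows), and with the animal as a block 33 were upregulated (21.5% of all rows). All 22 of the rescaled calls were also called with the block, and Psma3l, Psmc3, Psmc5, Psmd2, Psmd7 and Psmd9 were lost in both. With the block and the rescaling in the same fit, added after seeing the data, 16 genes passed (11% of all rows).

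Of the alpha ring, 7 of 8 genes were upregulated, with a median log2 FC of 1.05. Psma2, a gate-forming subunit, had the highest value of the ring. It stood at 284, 208 and 180 CPM after repeated atrophy in animals 364, 365 and 366, at 231, 128 and 152 CPM after atrophy in animals 362, 367 and 372 and at 105, 80.4 and 114 CPM after recovery in animals 369, 370 and 371. The control limbs ranged from 61.9 to 132 CPM with a median of 74.2 CPM. All repeated atrophy limbs therefore exceeded every control limb, and the log2 FC was 1.40 ± 0.23 (SE, adjusted p = 0.000327), or 2.64-fold. It was 1.02 after rescaling and 1.43 with the block. Psma8, an alpha subunit of male germ cells, was the exception in the ring and was listed at no more than 0.154 CPM in any TTX or control limb.

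Of the constitutive beta ring, 6 of 7 genes were upregulated, and 5 of 7 after rescaling. Psmb3, a structural beta subunit, had 228, 146 and 171 CPM after repeated atrophy in animals 364, 365 and 366, with control limbs at 48.2 to 150 CPM and a median of 74.8 CPM. Only the highest control limb, that of animal 372, exceeded the lowest repeated atrophy limb, and the log2 FC was 1.23 ± 0.23 (SE, adjusted p = 0.000809). RefSeq names 10 further loci after Psmb3, 8 of them pseudogenes, and how reads shared with such copies were assigned is not given in the sources used here; 19 of the 50 genes have at least 1 such copy.

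Of the constitutive catalytic subunits, Psmb5 and Psmb7 passed and Psmb6 did not, and the difference between them was not tested. Psmb5, which carries the chymotrypsin-like site, had 295, 216 and 290 CPM after repeated atrophy in animals 364, 365 and 366, and 114 to 182 CPM in control limbs with a median of 142 CPM. The groups did not overlap, and the log2 FC was 0.88 ± 0.15 (SE, adjusted p = 0.000334). Psmb7, with the trypsin-like site, had 683, 486 and 470 CPM, above the control range of 210 to 421 CPM and its median of 231 CPM, and a log2 FC of 1.05 ± 0.20 (SE, adjusted p = 0.000969). Psmb6, with the caspase-like site, had 48.8, 25.1 and 38.1 CPM in the same limbs, within the control range of 18.1 to 52.6 CPM (median 30.2 CPM). Its log2 FC of 0.23 ± 0.24 (SE, adjusted p = 0.507) did not pass and was −0.14 after rescaling. Psmb6 has a protein-coding copy and 2 pseudogenes in RefSeq, so its counts may be incomplete.

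Of the 6 base ATPases, 6 were upregulated (3 after rescaling, 4 with the block). Psmc4 had the highest value, with 287, 184 and 216 CPM in animals 364, 365 and 366 against 76.7 to 204 CPM in control limbs (median 99.3 CPM), a log2 FC of 1.09 ± 0.22 (SE, adjusted p = 0.00112). Psmc5 had the lowest, with a log2 FC of 0.56 ± 0.19 (SE, adjusted p = 0.0331) that did not pass after rescaling or with the block. Among the non-ATPase subunits of the base, Psmd1, a scaffold subunit, reached 619, 502 and 507 CPM against 201 to 422 CPM in control limbs (median 230 CPM). These groups did not overlap, and the log2 FC was 1.07 ± 0.21 (SE, adjusted p = 0.000951). Psmd4, a receptor for ubiquitin chains, had a log2 FC of 0.68 ± 0.27 (SE, adjusted p = 0.0605) and was not called.

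Of the 8 lid genes, 8 were upregulated (3 after rescaling, 7 with the block). Psmd14, the deubiquitinase of the lid, had 174, 145 and 135 CPM after repeated atrophy in animals 364, 365 and 366, and 149, 90.5 and 107 CPM after atrophy in animals 362, 367 and 372. Recovery limbs had 79.3, 63.2 and 88.5 CPM, and control limbs 45.4 to 103 CPM with a median of 54.8 CPM. Every repeated atrophy limb exceeded every control limb, and the log2 FC was 1.30 ± 0.21 (SE, adjusted p = 0.000299), or 2.46-fold, with 0.92 after rescaling. At the low end of the lid, Psmd7 had 340, 272 and 265 CPM against 131 to 338 CPM in control limbs (median 180 CPM), and its log2 FC of 0.68 ± 0.22 (SE, adjusted p = 0.0231) was lost after rescaling and with the block.

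**Figure D2:**
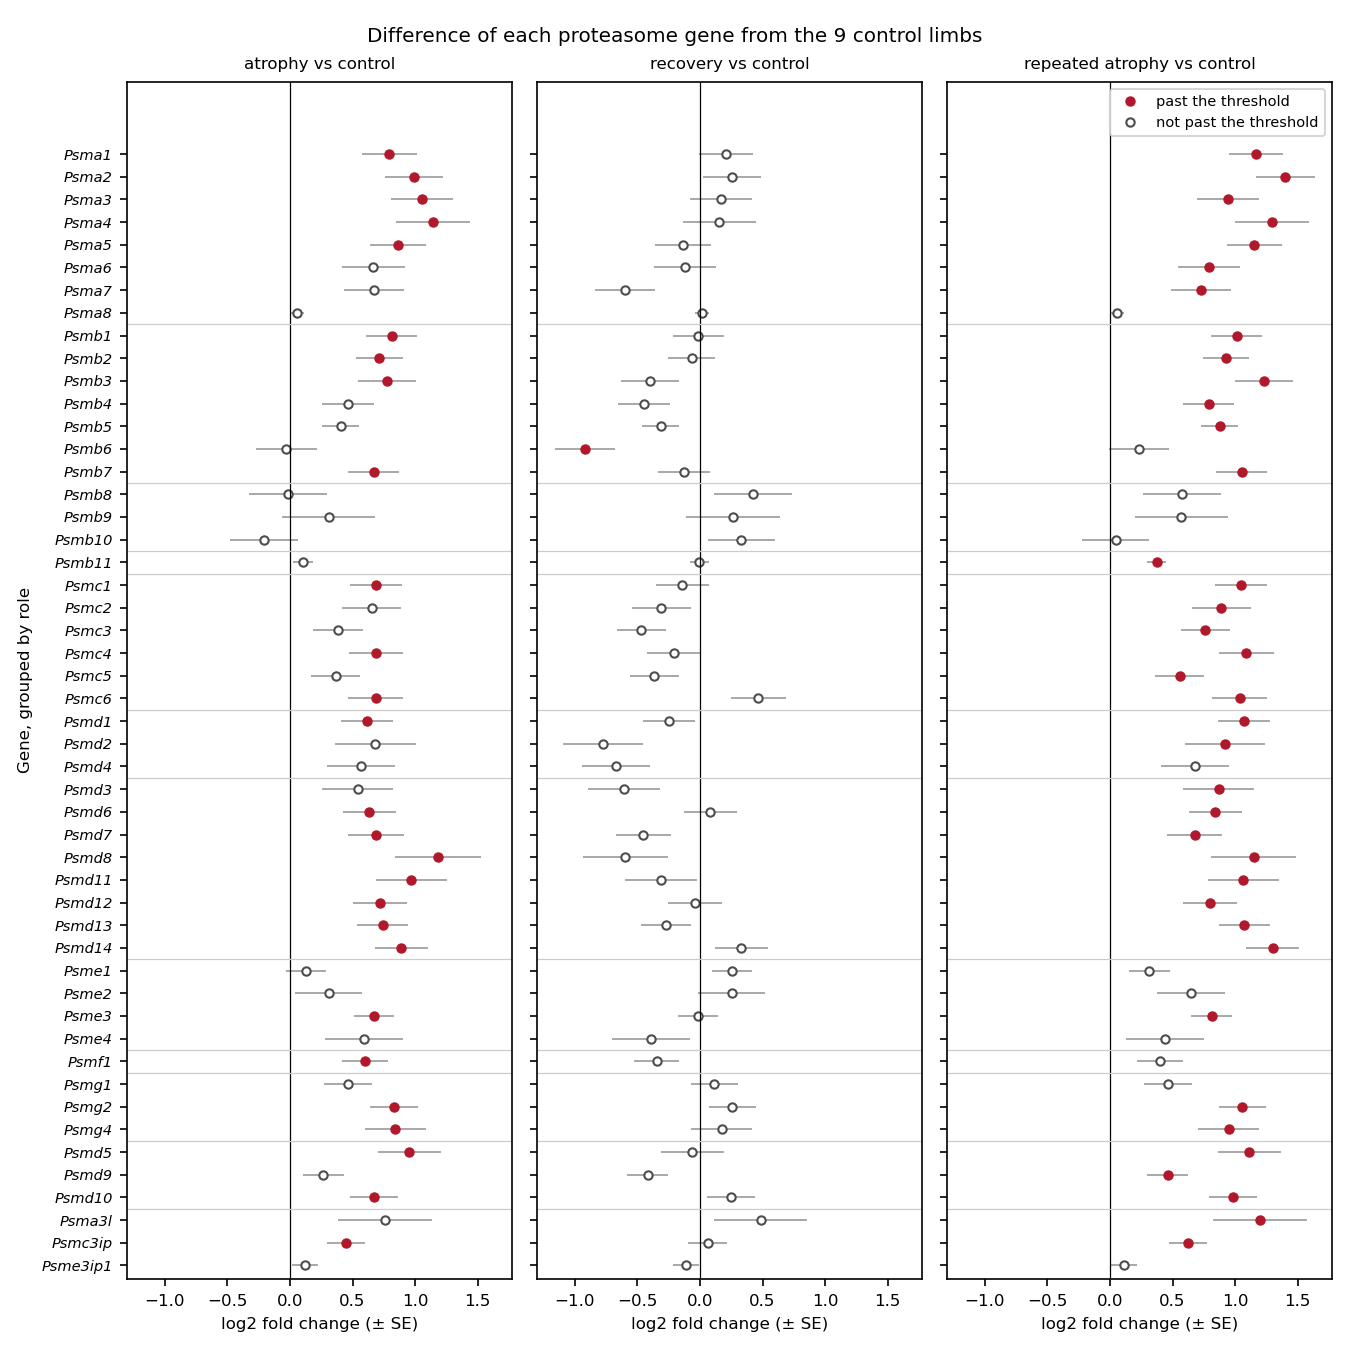
Log2 FC (x axis, ± SE) of each of the 50 genes (y axis, grouped by role) vs. the 9 control limbs after atrophy, recovery and repeated atrophy; filled points passed the threshold. After repeated atrophy 38 points are filled, after atrophy 27, and after recovery the single filled point is Psmb6 at −0.92.

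After the first atrophy, 27 of 50 genes were upregulated and 0 downregulated, against 20.3% of all rows upregulated, with a median log2 FC of 0.67. This median was 0.30 after rescaling, 0.39 with the animal as a block and 0.12 with both. The count comprised 5 of 8 alpha, 4 of 7 constitutive beta, 3 of 6 ATPase and 7 of 8 lid genes. Psmd8, a lid subunit chosen after its values were seen as the highest log2 FC in this comparison, had 187, 139 and 232 CPM in animals 362, 367 and 372 and 48.7 to 242 CPM in control limbs (median 76.5 CPM). Its log2 FC was 1.18 ± 0.34 (SE, adjusted p = 0.0211), and the control limb of animal 372 stood above all 3 atrophy limbs. The calls of this comparison depended on scaling and pairing: after rescaling 0 of 50 genes passed (4.73% of all rows), and with the animal as a block 0 of 50 passed (0.0% of all rows). At an unadjusted p under 0.05 there were 17 genes after rescaling and 10 with the block, and 2678 of 14031 rows with the block. Without animal 362, 0 genes passed (22 at an unadjusted p under 0.05), as did 1 of 13993 rows, and without animal 369, 16 passed (13.4% of all rows).

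In 1 of 50 genes, Psma3, all atrophy limbs lay above all control limbs (4.75% of all rows). Without animal 372 this number was 32 (12.1% of all rows), and 26 genes were upregulated (11.9% of all rows). Psma3 had 1.05 ± 0.25 (log2 FC ± SE, adjusted p = 0.00979). Psmb5 and Psmb6 had 0.40 and −0.03 and did not pass.

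Within single animals the left limb was compared with the right limb of the same rat. The median log2 difference over the 50 genes was 0.92, 0.85 and 0.75 in the repeated atrophy animals 364, 365 and 366, while over all 14134 rows it was 0.07, 0.28 and 0.25. Left exceeded right in 45, 49 and 48 of the 50 genes in these animals, and in 54.6%, 66.6% and 66.2% of all rows. In the atrophy animals the median was 1.05 in animal 362, 0.18 in animal 367 and −0.05 in animal 372, and left exceeded right in 49, 38 and 21 genes. Over all rows the medians of these animals were 0.34, 0.00 and 0.17, with left above right in 68.5%, 45.5% and 67.4% of rows, so in animal 372 the proteasome genes lay below the median of all rows. The 3 animals of the repeated atrophy group thus showed a left limb higher by a similar amount, and in the atrophy group animal 362 alone did so. In the recovery animals 369, 370 and 371 the medians were 0.07, −0.10 and 0.41, against 0.01, 0.00 and 0.21 over all rows. In the sham animals 354, 377 and 379 they were 0.20, 0.13 and 0.19, against −0.01, 0.09 and −0.03 over all rows.

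**Figure D3:**
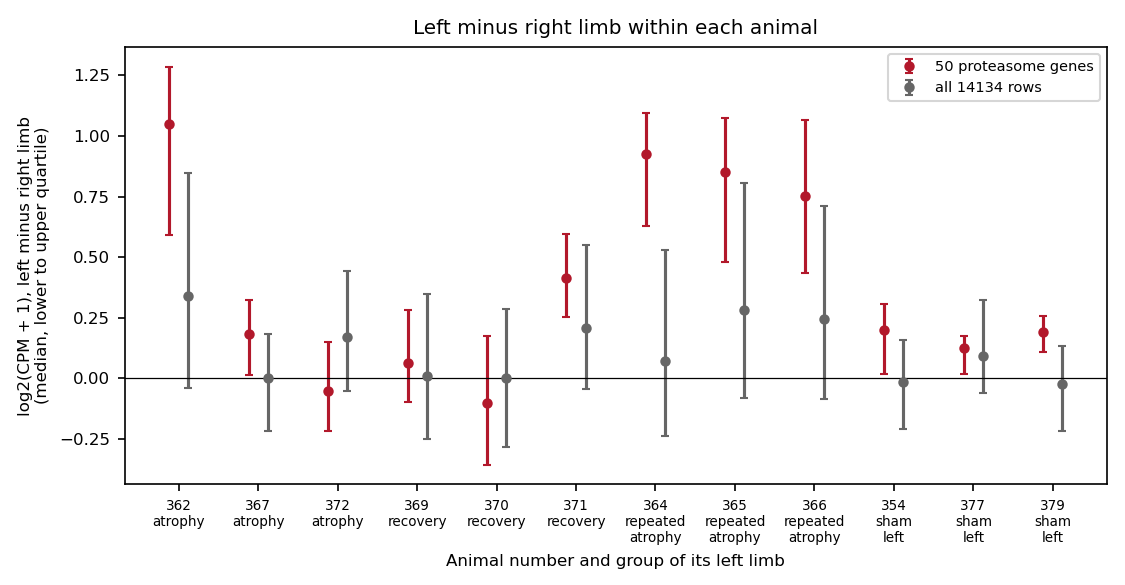
Difference in log2(CPM + 1) between left and right limb (y axis) within each of 12 animals (x axis), as the median with lower and upper quartile over the 50 proteasome genes (red) and over all 14134 rows (grey). The red medians lie at 0.75 to 0.92 in the repeated atrophy animals, and in the atrophy group at 1.05 in animal 362 but at 0.18 and −0.05 in the other animals.

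After recovery, 1 of 50 genes differed from control, against 4.4% of all rows upregulated and 3.33% downregulated, and the median log2 FC was −0.09. That gene was Psmb6, with 17.1, 13.9 and 16.1 CPM in animals 369, 370 and 371. Each of these limbs was below the lowest control limb, at 18.1 CPM, and the log2 FC was −0.92 ± 0.24 (SE, adjusted p = 0.0275), or 0.529-fold. The call held after rescaling at −0.95 and was absent with the animal as a block (log2 FC −0.96) and when animal 369, 370 or 371 was left out. Psmd9 had 11.4, 11.4 and 13.5 CPM, with the highest of these level with the lowest control limb to 3 digits, and its log2 FC of −0.42 ± 0.17 (SE, adjusted p = 0.124) did not pass. Psmd2, Psmd4 and Psma7 had −0.77, −0.67 and −0.60 and did not pass; Psmd2 and Psma7 were chosen after their values were seen. Fibroblast markers were high in the same limbs: the sum of 4 markers was 589 to 979 CPM after recovery, 150 to 368 CPM in control limbs, 193 to 344 CPM after atrophy and 266 to 384 CPM after repeated atrophy, and 3 of 4 were upregulated vs. control. Their part in the recovery results was not tested.

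Recovery was also compared with the first atrophy, and repeated atrophy with recovery; both comparisons use the same 3 recovery limbs. Recovery was lower than atrophy in 26 of 50 genes (14.5% of all rows), including all 7 constitutive beta genes, 5 of 6 ATPases and 2 of 8 alpha genes. Psmd2, a scaffold of the base, fell by 1.45 ± 0.39 on the log2 scale (SE, adjusted p = 0.0197). Repeated atrophy was higher than recovery in 37 of 50 genes (21% of all rows), including all 7 constitutive beta and all 8 lid genes. Psmb6 belonged to both sets, with −0.89 ± 0.29 (SE, adjusted p = 0.0437) after recovery vs. atrophy and 1.15 ± 0.29 (SE, adjusted p = 0.00896) after repeated atrophy vs. recovery. In 42 of 50 genes all repeated atrophy limbs lay above all recovery limbs (32.0% of all rows).

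After rescaling these counts were 6 (5.2% of all rows) and 24 (10.5% of all rows). With the animal as a block, which asks whether the left-right difference changed between time points, they were 0 (0.0143% of all rows) and 0 (0.0214% of all rows), with 0 and 25 genes, and 1117 and 2760 of 14031 rows, at an unadjusted p under 0.05. Without animal 369 or 370, 1 gene was lower after recovery than after atrophy (2.44% and 1.82% of all rows), and without animal 362 there were 4 (5.55% of all rows). Repeated and first atrophy did not differ in any of 50 genes (0 called, 2 with an unadjusted p under 0.05), against 0.0356% of all rows called. The median log2 difference of repeated over first atrophy was 0.23 over the 50 genes and 0.00 over all rows. In 1 of 50 genes, Psmd1, all repeated atrophy limbs lay above all atrophy limbs (2.79% of all rows), with a log2 difference of 0.45 ± 0.25 (SE, adjusted p = 0.891).

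None of the 3 immunoproteasome genes passed vs. control after atrophy, recovery or repeated atrophy. Psmb8, the counterpart of Psmb5, had 7.16, 10.3 and 21.5 CPM after repeated atrophy in animals 364, 365 and 366 and 5.16 to 16.97 CPM in control limbs (median 6.57 CPM). Its log2 FC was 0.58 ± 0.31 (SE, adjusted p = 0.165), and the groups overlapped. Psmb9 had 4.27, 8.90 and 10.2 CPM against 2.12 to 12.4 CPM (median 3.98 CPM), a log2 FC of 0.57 ± 0.37 (SE, adjusted p = 0.261). Psmb10 had 5.15, 9.65 and 11.6 CPM against 5.38 to 14.5 CPM (median 7.48 CPM), a log2 FC of 0.04 ± 0.27 (SE, adjusted p = 0.926). The animal with the highest Psmb8, Psmb9 and Psmb10 among the control limbs was 366, whose left limb also had the highest values of its group.

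The mean log2 level of Psmb8, Psmb9 and Psmb10 minus that of Psmb5, Psmb6 and Psmb7, which does not depend on the scaling of a limb apart from the pseudocount, was −3.80 ± 0.55 in control limbs (SD, n = 9). The atrophy limbs had −4.12 ± 0.25, the recovery limbs −3.01 ± 0.16 and the repeated atrophy limbs −4.12 ± 0.82 (SD, n = 3 each). The 3 recovery limbs had −2.94, −3.19 and −2.90 in animals 369, 370 and 371, and 8 of 9 control limbs were lower than all of them; the control limb of animal 366 had −2.85. The constitutive part of the ratio, which includes Psmb6, the gene called lower after recovery, also varied. It summed to 335.5 to 404.4 CPM after recovery and 367.4 to 654.9 CPM in control limbs. The right limbs of the recovery animals, at −3.53, −3.41 and −3.62, were the next highest control limbs. Sham limbs, which had no TTX, reached the level of the recovery limbs: animal 354 had −2.61 on the left and −2.38 on the right, animal 377 had −3.13 and −3.65, and animal 379 had −4.03 and −3.97. As a sum, immunoproteasome genes stood at 6.56% to 7.75% of their constitutive counterparts after recovery, 1.61% to 5.42% after repeated atrophy, 2.89% to 3.60% after atrophy, 2.21% to 10.2% in control limbs and 3.60% to 14.6% in sham limbs.

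The summed level of 8 leukocyte markers was 335 to 644 CPM after recovery, 89.7 to 280 CPM after repeated atrophy, 111 to 406 CPM after atrophy and 81.1 to 298 CPM in control limbs, the highest of which was again animal 366. In sham limbs it was 152 to 557 CPM, and both limbs of animal 354, which had the highest immunoproteasome shares, had 557 and 474 CPM. The recovery limbs were above all control limbs in the marker sum. The atrophy limb of animal 362 had a marker sum of 406 CPM and a ratio of −3.86, below the control mean. Its immunoproteasome genes summed to 28.11 CPM, within the range of the recovery limbs. Their constitutive counterparts summed to 780.4 CPM in this limb, against 335.5 to 404.4 CPM after recovery. After recovery 4 of the 8 leukocyte markers were upregulated, and 3 without the intensity trend. Over all 24 limbs Cd3e, which marks T cells, was at most 1.46 CPM, in a recovery limb, and Cd74, an invariant chain gene of antigen-presenting cells, was at most 341 CPM, in a sham left limb. The part of leukocytes and fibroblasts in the ratio was not tested.

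**Figure D4:**
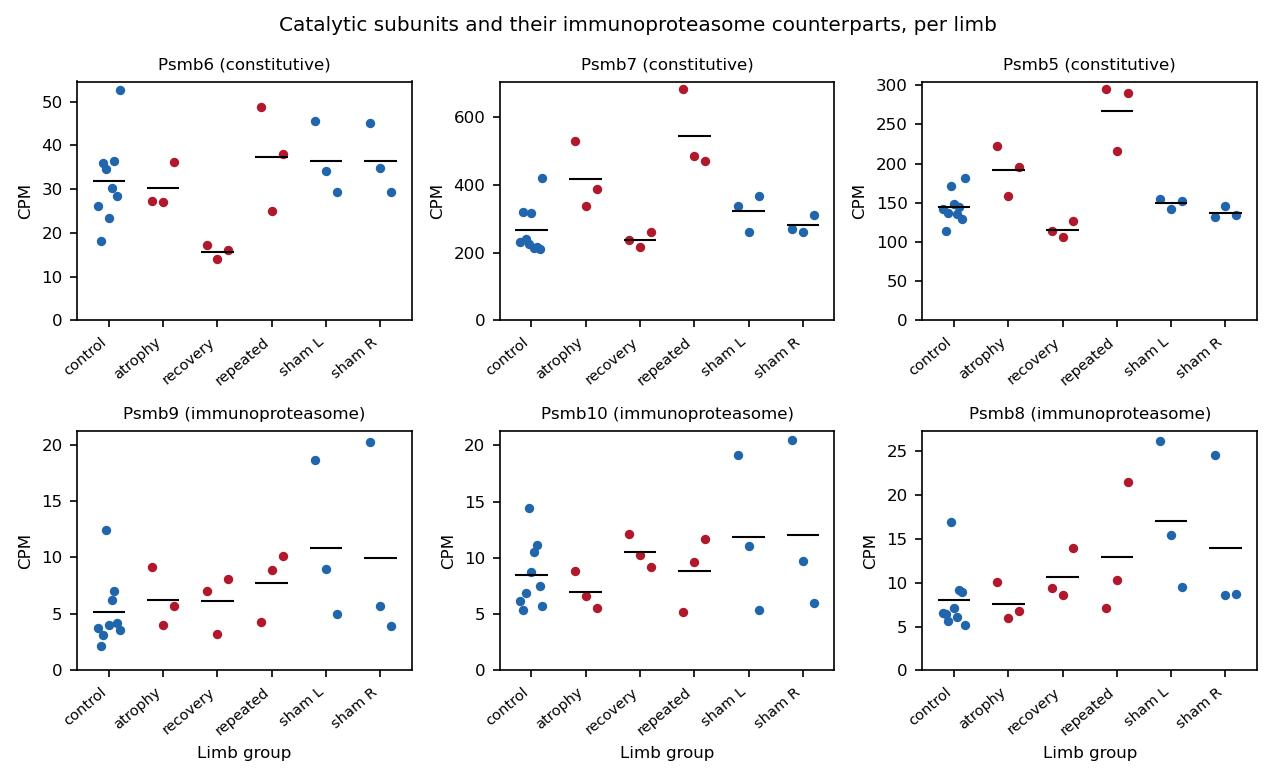
CPM (y axis) of the constitutive catalytic subunits (top) and their immunoproteasome counterparts (bottom) in each limb (points) by group, with group means as lines; red marks TTX-treated left limbs, blue control and sham limbs. Psmb5 and Psmb7 after repeated atrophy lie above all control limbs, Psmb6 is lowest after recovery (13.9 to 17.1 CPM), and the immunoproteasome genes of each TTX group overlap with control.

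Among the activators, Psme3, which forms a nuclear cap that acts without ubiquitin, was upregulated after both periods of TTX. It had 101, 93.4 and 98.6 CPM after repeated atrophy in animals 364, 365 and 366, 97.0, 68.3 and 104 CPM after atrophy in animals 362, 367 and 372, and 50.7, 48.3 and 65.9 CPM after recovery in animals 369, 370 and 371. Control limbs had 43.7 to 77.8 CPM with a median of 51.4 CPM, below all repeated atrophy limbs. The log2 FC was 0.81 ± 0.16 after repeated atrophy (SE, adjusted p = 0.00111) and 0.67 ± 0.16 after atrophy (SE, adjusted p = 0.0106). The call after atrophy was lost after rescaling and with the animal as a block, as were those of all genes here.

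The interferon-inducible activator subunits did not pass. Psme1 had 68.2, 89.1 and 97.6 CPM after repeated atrophy against 51.0 to 82.8 CPM in control limbs (log2 FC 0.31 ± 0.16 SE, adjusted p = 0.146). Psme2 had 10.0, 11.4 and 7.37 CPM against 2.94 to 10.9 CPM (log2 FC 0.65 ± 0.27 SE, adjusted p = 0.0714). Psme4, a large activator linked to the breakdown of histones, had 315, 324 and 294 CPM against 145 to 533 CPM, with a log2 FC of 0.44 ± 0.31 (SE, adjusted p = 0.311). In the sham animal 379 Psme4 had 661 and 656 CPM in left and right limb, the highest values of all 24 limbs. The inhibitor gene Psmf1 had 41.0, 29.5 and 33.2 CPM after atrophy in animals 372, 367 and 362 against 15.8 to 36.3 CPM in control limbs (log2 FC 0.60 ± 0.18 SE, adjusted p = 0.026), and 0.40 ± 0.18 (SE, adjusted p = 0.0974) after repeated atrophy. Its call after atrophy was lost after rescaling and with the block.

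Of the 6 assembly chaperones with a row, 5 were upregulated after repeated atrophy, 4 of them also after rescaling. Psmg2, a chaperone of the alpha ring, had 32.0, 38.6 and 28.9 CPM in animals 364, 365 and 366 against 10.9 to 22.7 CPM in control limbs (median 14.7 CPM). These groups did not overlap, and the log2 FC was 1.06 ± 0.19 (SE, adjusted p = 0.000541). Its partner Psmg1 had 31.9, 32.8 and 27.8 CPM against 15.4 to 35.3 CPM, and a log2 FC of 0.46 ± 0.19 (SE, adjusted p = 0.0653) that passed with the block (0.50, adjusted p = 0.0452). Psmg4, which acts on the same ring, had a log2 FC of 0.95 ± 0.24 (SE, adjusted p = 0.00594). Psmg3 was not analysed here.

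Among the chaperones of the base, Psmd5 had 45.7, 55.5 and 66.1 CPM after repeated atrophy against 19.4 to 49.1 CPM in control limbs (median 22.5 CPM), with a log2 FC of 1.11 ± 0.25 (SE, adjusted p = 0.00277). Psmd10, also known as gankyrin, had 19.7, 20.3 and 20.3 CPM against 6.95 to 14.6 CPM and a log2 FC of 0.99 ± 0.19 (SE, adjusted p = 0.000945). Psmd9 had 28.0, 17.3 and 25.2 CPM against 13.5 to 24.3 CPM, and its log2 FC of 0.46 ± 0.17 (SE, adjusted p = 0.0382) did not pass after rescaling or with the block.

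Psmb11 and Psma8 were close to the detection limit, where 1 read is worth 0.0324 to 0.053 CPM. Psmb11, the beta subunit of the thymus proteasome, had 0.544, 0.106 and 0.344 CPM after repeated atrophy in animals 364, 365 and 366 and at most 0.0693 CPM in control limbs. It passed the threshold (adjusted p = 0.00171) on the log2(CPM + 1) scale, where its difference of 0.37 ± 0.08 (SE) was small. Psma8 did not pass in any comparison with control. Of the genes matched by name, Psma3l overlaps Psma3 on chromosome 6 and is listed by RefSeq as another name of it, so reads of these rows may be shared. Psma3l had 23.5, 19.2 and 10.6 CPM in the repeated atrophy limbs in order of level, against 3.28 to 15.9 CPM in control limbs (log2 FC 1.198 ± 0.37 SE, adjusted p = 0.0188). Psmc3ip, a factor of meiotic recombination, had a log2 FC of 0.62 ± 0.15 (SE, adjusted p = 0.00451), and Psme3ip1, which binds the Psme3 protein, had 0.12 ± 0.10 (SE, adjusted p = 0.433).

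Per kilobase of the gene models, mean control levels of the alpha ring, constitutive beta ring, base and lid genes apart from Psma8 ran from 24.03 CPM per kb for Psma3 to 274 ± 74.1 CPM per kb for Psmb7 (SD, n = 9). The assembly chaperones had 12.42 (Psmd9) to 23.6 CPM per kb (Psmg4), and the immunoproteasome genes had 5.65 ± 3.40 (Psmb9), 7.37 ± 3.34 (Psmb8) and 8.51 ± 3.04 CPM per kb (Psmb10). Differences among the immunoproteasome levels were not tested. Psmb6, at 41.1 ± 12.8 CPM per kb, was the lowest of the constitutive beta subunits, and Psme2, at 4.46 CPM per kb, was far below its partner Psme1 at 68.3 CPM per kb. RefSeq lists 3 pseudogenes each for Psme1 and Psme2, so reads shared with copies may affect these levels.

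Genes that work with the proteasome were taken from fixed lists. Of 9 partner genes (proteasome-bound factors and assembly or import factors), 9 were upregulated after repeated atrophy (28.1% of all rows) and 4 after rescaling (13.1% of all rows), from Adrm1, a ubiquitin receptor, at 0.73 ± 0.27 (SE, adjusted p = 0.0414) to Zfand2a, which is induced by misfolded protein, at 1.48 ± 0.45 (SE, adjusted p = 0.0162). Against the same shares of all rows, 5 of 9 genes for the transcription of proteasome genes were upregulated, and 4 after rescaling. Maff, a small Maf partner factor, had the highest log2 FC of 2.04 ± 0.56 (SE, adjusted p = 0.0092), and Nfe2l3 the lowest with −0.04 ± 0.06 (SE, adjusted p = 0.678). Of 12 genes for ubiquitin, its activation and shuttling, 8 were upregulated (28.1% of all rows), and after rescaling 3 were upregulated (13.1% of all rows) and 1 was downregulated. Rad23b, a shuttle factor, was highest at 1.42 ± 0.27 (SE, adjusted p = 0.00085). Ubb, a polyubiquitin gene, was lowest at −0.18 ± 0.16 (SE, adjusted p = 0.402).

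Of 6 genes for antigen presentation by MHC class I and its interferon control, 1 was upregulated after repeated atrophy, also after rescaling, against 28.1% and 13.1% of all rows. It was B2m, the light chain of MHC class I, at 2.19 ± 0.28 (SE, adjusted p = 6.74e-05). B2m had 1546, 3376 and 2509 CPM in animals 364, 365 and 366 against 432 to 743 CPM in control limbs. After recovery B2m was again the 1 gene of this list to pass, with 1452, 1254 and 1671 CPM.

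In the sham animals, 0 of 50 genes differed between sham left and control (0.0% of all rows, limma), with 11 at an unadjusted p under 0.05 and 1575 of 13995 rows at that level. Without animal 354, 0 of 49 genes and 711 of 13840 rows reached that level. Without animal 372 it was 32 of 49 genes and 2035 of 13943 rows, and without animal 377 26 of 50 genes and 3379 of 13946 rows. The median log2 FC of the 50 genes in this comparison was 0.41, and that of all rows 0.16. Between left and right limb of the same sham animals, 0 of 50 genes passed (0.0% of all rows), with 11 genes and 616 of 13995 rows at an unadjusted p under 0.05. The median log2 FC was 0.16 over the 50 genes and 0.01 over all rows. The summed level of the 50 genes differed more between sham animals than between their limbs: it was 7219 and 6486 CPM in left and right limb of animal 354, 5178 and 4781 in animal 377, and 8966 and 7938 in animal 379. The left limb was the higher one in each of the 3 sham animals. Both limbs of animals 354 and 379 were above the 8 control limbs other than that of animal 372.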

How the data were processed

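RNA-seq of 24 TA limbs was used, from 12 animals with 2 limbs each. The authors filtered contaminant reads with Bowtie2 2.2.5, aligned reads to rn7 with STAR and used Partek Flow; annotation, counting and strand setting are not given in the sources used here. The authors deposited CPM, with each column summing to 1000000, although median of ratios normalization by DESeq2 is named. Depth was inferred from the commonest low step; 89.8% to 91.6% of low values were whole multiples (tolerance 0.1), so reads were not taken as recovered and no count test was run. Labels of 3 further value columns match no sample, and they were not used.

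Rows above 0 in at least 3 limbs were fitted with limma 3.58.1 (R 4.3.3) on log2(CPM + 1) with an intensity trend: 14031 rows in 18 limbs of the TTX animals, and 13995 rows in 15 limbs for sham left vs. control. Sham left vs. sham right used the animal as a block. All 50 genes passed the filter. P-values were adjusted by Benjamini-Hochberg over all rows. Limbs of 1 animal are paired by the labels; the correlation of their deviations from group means ran from −0.326 to 0.53 in TTX animals and from 0.614 to 0.84 in sham animals (10543 rows). Fits were tested on simulated data.

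The genes named per role are those with the highest and lowest log2 FC after repeated atrophy, all catalytic and immunoproteasome subunits, activators, the inhibitor and chaperones, genes called in the recovery, sham or repeated vs. first atrophy comparisons, and symbols matched by name alone. Members and lists were chosen with earlier results of these data known. Some genes of the lists were not analysed here. The values of 1 listed gene are not reported here.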

Additional observations from a re-analysis of the deposited data

Results flagged for a closer look

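Among the 9 control limbs, a gap test (Dixon, at the 95% critical value) was applied to the 50 genes, their summed level and the share of the immunoproteasome. It marked 23 of these 52 measures, where chance marks about 1 in 20, and the measures are not independent because they come from the same limbs. In 19 of the 23, the right limb of animal 372 was the highest, including the summed level of 9455 CPM, whose gap to the next limb was 0.594 of the range. The gap of that limb was 0.574 of the range for Psma5, 0.678 for Psma7, 0.589 for Psmb2, 0.69 for Psmb3 and 0.568 for Psmb4. It was 0.562 for Psmc3, 0.693 for Psmc4, 0.627 for Psmd2, 0.66 for Psmd3, 0.698 for Psmd4, 0.566 for Psmd5, 0.593 for Psmd7, 0.78 for Psmd8 and 0.59 for Psmd9. It was 0.738 for Psmd11, 0.536 for Psmd12, 0.635 for Psmd13 and 0.624 for the inhibitor gene Psmf1. The immunoproteasome genes stood apart in another limb: the right limb of animal 366 was the highest for Psmb8, at 0.663 of the range, and for Psmb9, at 0.525. For the activator gene Psme2 the right limb of animal 367 was the highest, at 0.501. The germ cell gene Psma8 was above 0 in 1 control limb, that of animal 369, which gives a gap of 1.0. None of the 50 genes passed the test for a left-right difference that changed between time points (limma with the animal as a block), with 0 to 25 of them at an unadjusted p under 0.05 in each of the 3 comparisons. Of 14031 rows, 2 passed for recovery vs. atrophy and 12 for repeated atrophy vs. recovery.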

How the results depend on the processing

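Scaling and pairing decided most of the counts of upregulated or downregulated proteasome genes. After atrophy 27 genes passed, 0 when rescaled with a trimmed mean of log ratios, 0 after a median of ratios and 3 after quantile normalization (4.73%, 4.53% and 5.25% of all rows upregulated). After repeated atrophy the counts were 38, 22, 22 and 22, for recovery vs. atrophy 26, 6, 6 and 6, and for repeated atrophy vs. recovery 37, 24, 24 and 24. With the animal as a replicate block, 0 passed after atrophy, 0 after recovery, 33 after repeated atrophy, 0 for recovery vs. atrophy and 0 for repeated atrophy vs. recovery. With the block and the rescaling together, added after seeing the data, 16 passed after repeated atrophy (11% of all rows upregulated) and 0 in the other comparisons. Leaving out 1 animal at a time gave 0 to 31 after atrophy, 0 to 1 after recovery, 28 to 40 after repeated atrophy, 1 to 30 for recovery vs. atrophy and 25 to 38 for repeated atrophy vs. recovery. Over the same fits 0.00715% to 30.7% of all rows were upregulated after atrophy, 14.5% to 30.9% after repeated atrophy and 8.99% to 23.3% for repeated atrophy vs. recovery, and 1.82% to 22.7% were lower for recovery vs. atrophy. The low ends came without animal 362 (atrophy, with 16 without animal 369), 369 or 370 (recovery vs. atrophy) and 370 (repeated atrophy vs. recovery). Repeated vs. first atrophy gave 0 genes under each alternative named here, and sham left vs. control under those run for it, which leave out the animal as a block or random effect and the 12 right limbs as control. The cause was not tested. The animal as a block gives no value for sham left vs. control, which sets different animals against each other.

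Pseudocounts of 0.1 and 10, other filters, rows summed per symbol, 12 right limbs as control, the animal as a random effect and no intensity trend left each count within 1.5 times its value, and no called gene changed direction vs. control. With 3 limbs a group, 9 shared control limbs and 1 sham animal per time point, precision is limited, and whole reads were not recovered.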
